A study of Oryza sativa with 36 samples.

Results

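The loci described here are the clade A type 2C protein phosphatases (PP2C) and a pair of ABA-response bZIP factors of rice (Oryza sativa), 10 of the 55801 loci in the deposited table of molecule counts. They were taken by their identifiers. Of the 10, 8 are clade A PP2C loci and 2 are the bZIP loci OsbZIP23 (LOC_Os02g52780) and OsbZIP46 (LOC_Os06g10880). The expression table was built with CEL-Seq2, which tags molecules near the 3' end with a molecular identifier (UMI), from 35 libraries of rice tissue. NIL-MP3 gave 18 libraries and Takanari 17, in 12 groups of cultivar and tissue label. NIL-MP3 is, by its name, a near-isogenic line, and Takanari is an indica cultivar bred for high yield. MP3 is known as a panicle-number locus of chromosome 3; that is background, since the labels describe no allele. Each cultivar had the tissue labels AM1, AM2, AM3, AM4, AM5 and SAM, abbreviations left unexplained in the labels, although every library is described as axillary meristem. Each group had 3 libraries, except Takanari SAM with 2. All plants were kept in short days at 70% humidity, with 10 h light periods (27 °C) and 14 h dark periods (25 °C). No hormone or stress treatment is named for any group, so the loci are described here without an ABA-treated comparison. Separate plants are not named as the source of the libraries of a group, so the p-values cover only the spread among these samples, which may be technical.

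Abscisic acid (ABA) is the plant hormone of drought, seed dormancy and, in several species, the arrest of axillary buds. When ABA binds its PYL/RCAR receptors, the receptors capture clade A PP2C phosphatases, which otherwise keep SnRK2 kinases (SAPK in rice) switched off. The freed kinases phosphorylate bZIP factors that bind ABA-responsive promoter elements. Transcripts of clade A PP2C genes commonly rise with ABA, as a feedback on the pathway, which is why they serve as a readout of ABA response. OsbZIP23 and OsbZIP46 are activators of ABA-responsive genes and are known for their part in drought tolerance of rice.

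Total counts per library ran from 77362 to 224706, with the lowest mean, 110750 ± 29303 (SD, n = 6), in AM5. At this depth the 10 loci together held 24 to 127 molecules in a library, with a median of 67, or 0.0498% of all counts. One count was worth a median of 8.13 CPM, the count scaled to the library's total over the tested loci after TMM scaling, and a count of 0 allowed up to 15.2 to 50.6 CPM, the level of 3 counts, depending on the library. These limits cover counting error only. A pair of class I KNOX loci, meristem markers from general knowledge of rice locus numbers, had 77.6 to 395 CPM when summed in each library, so transcripts of this pair were present in all of them. The YABBY loci, markers of leaf primordia, summed to 107 to 480 CPM, and the 4 loci of Rubisco and chlorophyll-binding proteins to 7.61 to 258 CPM. In bulk tissue, fewer cells of a type and less RNA per cell cannot be told apart.

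The ABA loci were covered by few molecules each, and tissues next to each other in mean level overlapped at every locus. Of the 10 loci, 4 had a count in every library, LOC_Os01g40094, LOC_Os05g51510, LOC_Os05g46040 and LOC_Os03g16170, and 6 were at 0 in at least 1 library. Counts over all 35 libraries ranged from 493 for LOC_Os03g16170 and 455 for LOC_Os01g40094 to 23 for LOC_Os05g49730. LOC_Os05g49730 had a count in 11 libraries, was at 0 in all 6 AM2 libraries, and did not pass the filter on low counts, so 9 of the 10 loci were tested. Its highest value was 51.1 CPM, or 5 counts, in Takanari AM3 library 9. Levels of different loci were not set against each other.

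**Figure D1:**
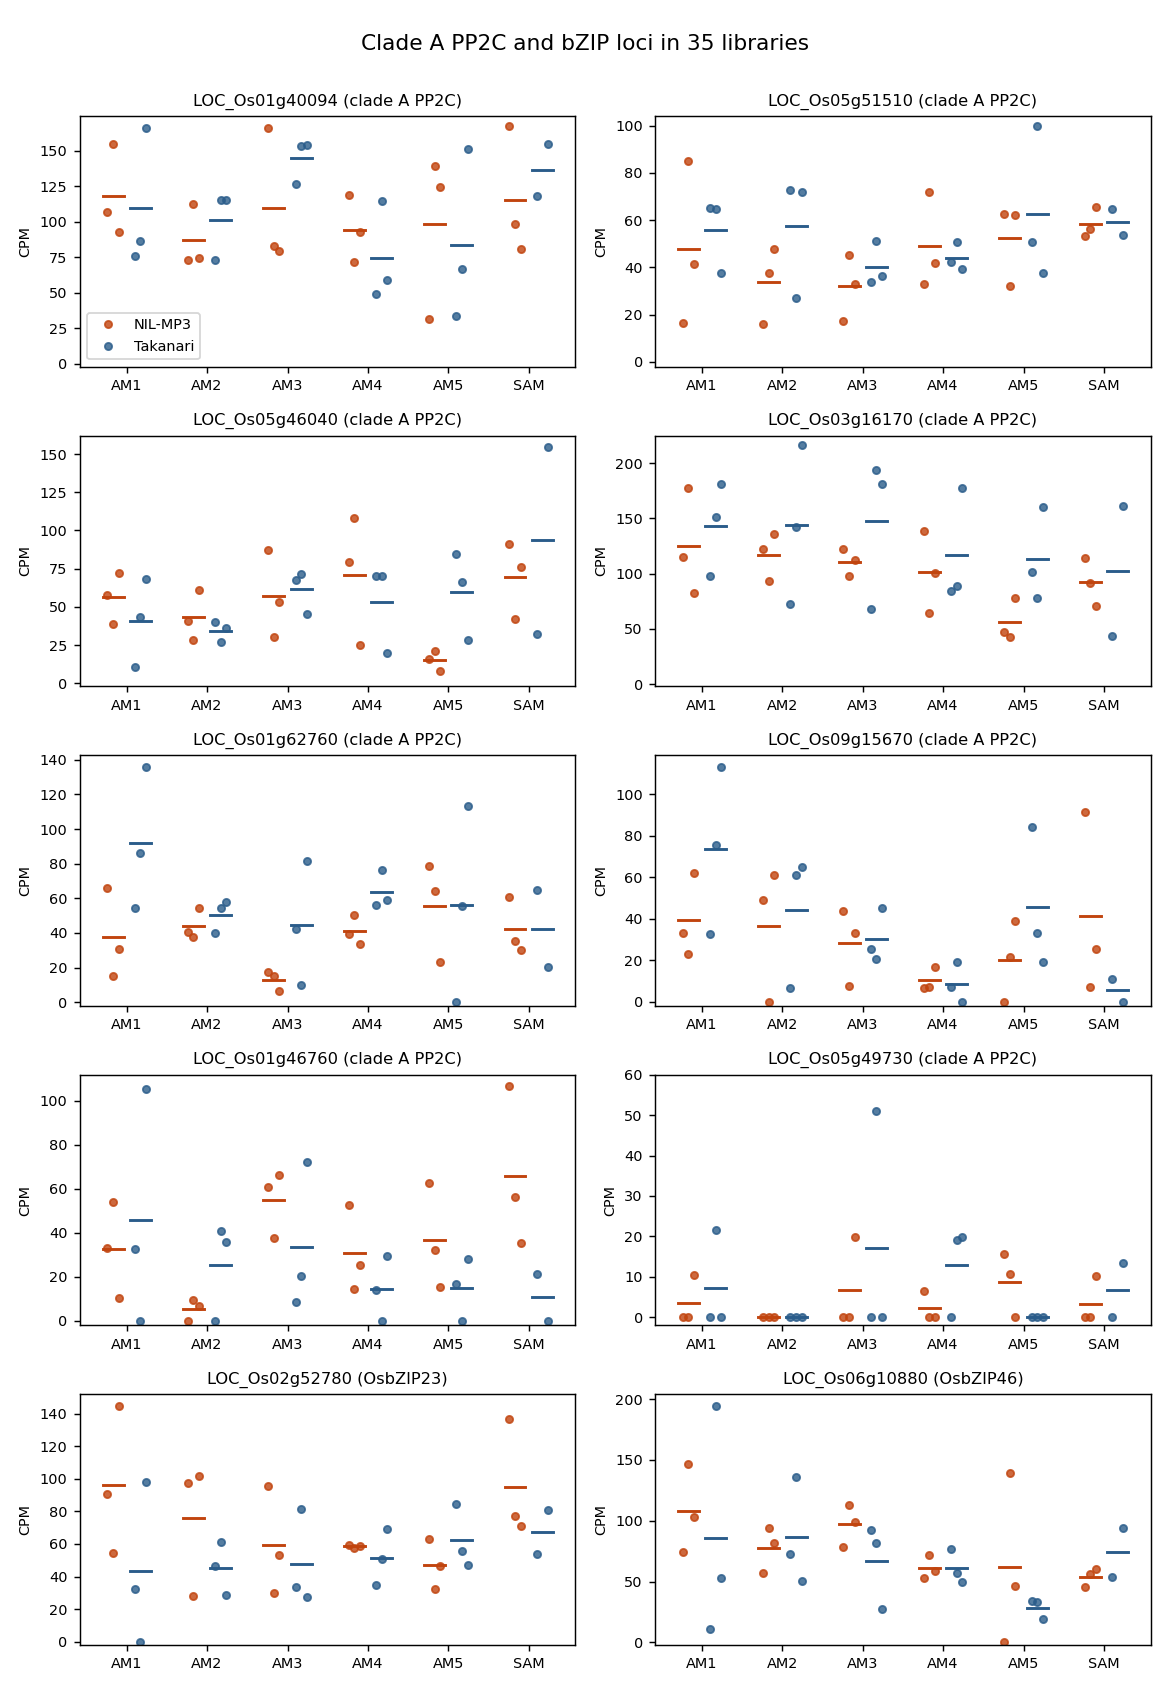
Level of each of the 10 loci in CPM (vertical axis, a separate scale in each panel) by tissue label (horizontal axis). Each point is 1 library, red for NIL-MP3 and blue for Takanari, and each bar is the mean of a group. The points of tissues next to each other in mean level overlap in every panel, and LOC_Os05g49730 lies at 0 in 24 of 35 libraries.

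Ordering the 6 tissues by mean level within each locus gave 50 pairs of neighbours over the 10 loci. In 0 of the 50 pairs did the means differ by more than the larger of both SDs, and in 0 of 50 were the ranges apart. Neighbours in this order are the closest in mean, so overlap was likely beforehand, and tissues further apart were not compared this way. At LOC_Os09g15670 every AM1 library, from 23.2 CPM, lay above every AM4 library, up to 19.1 CPM. Within groups, the spread between libraries was 0.951 to 2.37 times what counting alone gives (chi-square over its degrees of freedom). The fitted biological coefficient of variation of the 9 tested loci ran from 0.241 for LOC_Os01g40094 to 0.491 for LOC_Os01g46760, against a common value of 0.248.

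The first comparison asked whether the loci changed along the series AM1 to AM5, as a slope on the log2 scale per step of the label number, averaged over both cultivars. OsbZIP46 (LOC_Os06g10880) fell, and it was the only one of the 9 tested loci to pass the threshold, an adjusted p of 0.05. Of all tested loci, 19.2% passed in this comparison and 9.81% passed with a negative slope, and 1 of 9 is close to that background. The median slope of the 9 loci was -0.086, and 8 of 9 were negative, beside a median of 2.88e-05 over all 6943 loci, of which 3471 were negative. At an unadjusted p under 0.05 there were 3 of the 9 loci, OsbZIP46, LOC_Os03g16170 and LOC_Os09g15670, against 30.6% of all loci.

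OsbZIP46 averaged 97.1 ± 66.2 CPM in AM1, then 81.8 ± 30.7 in AM2 and 82.1 ± 29.7 in AM3, and 61.2 ± 11.0 in AM4 and 45.2 ± 48.6 CPM in AM5 (SD, n = 6 each), and 62.1 ± 18.7 CPM in SAM (SD, n = 5). In AM1 its libraries stood at 74.1, 147 and 103 CPM in NIL-MP3 and at 10.9, 194 and 52.8 CPM in Takanari. In AM5 they stood at 0, 139 and 46.7 CPM in NIL-MP3 and at 33.7, 33.3 and 18.9 CPM in Takanari. AM1 and AM5 thus overlapped: a NIL-MP3 AM5 library, number 7, was near the top of the AM1 range, and a Takanari AM1 library, number 5, was below all but 1 of the AM5 libraries. The library at 0, NIL-MP3 AM5 number 1, could have held up to 47.1 CPM. The slope was -0.27 ± 0.098 per label number (SE, edgeR's quasi-likelihood test, adjusted p = 0.0447), a level 2.11-fold lower in AM5 than in AM1 along the fitted line (95% interval of the ratio 0.275 to 0.819).

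This call was marginal. It ended without any 1 of 14 libraries: NIL-MP3 AM1 11, AM2 10 and 16, AM4 2 and 14 and AM5 1 and 13, and Takanari AM1 11, AM2 10, AM4 8 and 14 and AM5 1, 7 and 13. The adjusted p then ranged up to 0.379 in edgeR, without Takanari AM1 library 11, when the slope was -0.14. It also ended without the AM5 libraries (slope -0.19, adjusted p = 0.313), with DESeq2 (-0.27, adjusted p = 0.0593) and with limma voom and quality weights (-0.25, adjusted p = 0.098). The 2 shallowest libraries were AM5 libraries, the NIL-MP3 and Takanari libraries numbered 1, and with every library thinned to the lowest total the slope was -0.35 (edgeR, adjusted p = 0.0205). The summed KNOX markers averaged 314 ± 51.7 CPM in AM1 and 238 ± 114 CPM in AM5 (SD, n = 6 each), and neither locus of that pair had a slope past the threshold; their part in the OsbZIP46 slope was not tested.

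OsbZIP23 (LOC_Os02g52780) showed no slope beyond its error, -0.09 ± 0.096 per label number (SE, edgeR adjusted p = 0.588; 95% interval -0.28 to 0.11). Its means were 70.0 ± 51.7 CPM in AM1, then 60.6 ± 32.7 in AM2 and 53.6 ± 29.1 in AM3, and 55.1 ± 11.4 in AM4 and 54.7 ± 17.7 CPM in AM5 (SD, n = 6 each), and 83.9 ± 31.4 CPM in SAM (SD, n = 5). The AM1 libraries spanned 0 to 145 CPM, wider than the distance between any tissue means. The slope of OsbZIP46 passed and that of OsbZIP23 did not; the difference between their slopes was not tested.

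The main fit had no replicate block. In it 0 of the 7 tested phosphatases passed the threshold in the slope, beside 19.2% of all tested loci. At an unadjusted p under 0.05 there were 2 of 7, close to the 30.6% of all tested loci. LOC_Os09g15670 averaged 56.6 ± 34.2 CPM in AM1, then 40.4 ± 29.3 in AM2 and 29.2 ± 14.4 in AM3, and 9.45 ± 7.14 in AM4 and 32.8 ± 28.6 CPM in AM5 (SD, n = 6 each), and 26.9 ± 37.2 CPM in SAM (SD, n = 5). In AM4 its libraries stood at 6.60, 7.19 and 16.8 CPM in NIL-MP3 and at 7.02, 19.1 and 0 CPM in Takanari, 8 molecules in all. In AM1 they stood at 33.0, 23.2 and 62.0 CPM in NIL-MP3 and at 32.6, 75.6 and 113 CPM in Takanari, all above every AM4 library. Its slope was -0.35 ± 0.14 per label number (SE, edgeR adjusted p = 0.0737). With a replicate block of 6 levels, a set of consecutively numbered libraries in each cultivar, the slope was -0.34 (edgeR adjusted p = 0.0461). Without the AM5 libraries, whose mean lay above that of AM4, the slope over AM1 to AM4 was -0.75 ± 0.21 (SE, edgeR adjusted p = 0.0125). The adjusted p was also under the threshold without 1 library, for NIL-MP3 AM2 library 10 (0.0449) and Takanari AM2 library 4 (0.048), AM4 library 8 (0.0499) and AM5 library 1 (0.0477).

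LOC_Os03g16170, the phosphatase with the most counts, averaged 134 ± 41.8 CPM in AM1, then 131 ± 49.5 in AM2 and 129 ± 48.9 in AM3, and 109 ± 41.6 in AM4 and 84.5 ± 43.1 CPM in AM5 (SD, n = 6 each), and 96.2 ± 44.9 CPM in SAM (SD, n = 5). In AM5 the 2 lowest values were from NIL-MP3, whose libraries stood at 47.1, 42.7 and 77.8 CPM, against 101, 77.6 and 161 CPM in Takanari. Its slope was -0.17 ± 0.073 per label number (SE, edgeR adjusted p = 0.0905), and without Takanari AM5 library 13 the slope was -0.21 (adjusted p = 0.0478). With the replicate block of 6 levels the slope was -0.17 (edgeR adjusted p = 0.0416). The other 5 tested phosphatases had slopes between -0.09 and 0.04 per label number, each within 1 standard error of 0, and adjusted p of 0.591 to 0.995. Their intervals still allowed slopes down to -0.45, the lower bound for LOC_Os01g46760.

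**Figure D2:**
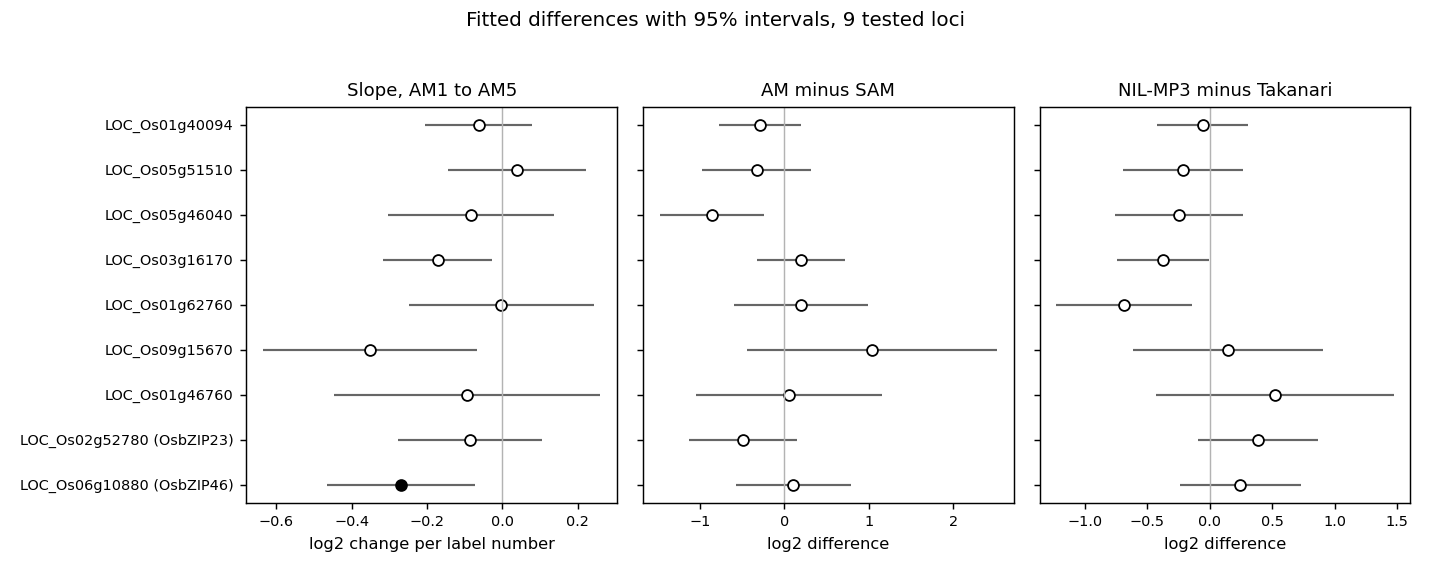
Fitted log2 differences (horizontal axes) of the 9 tested loci (vertical axis), for the slope per label number from AM1 to AM5, for the AM groups minus SAM, and for NIL-MP3 minus Takanari. Circles are estimates, lines are 95% intervals, and the filled circle, the slope of OsbZIP46 at -0.27, is the only one past an adjusted p of 0.05.

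The summed level of the 8 phosphatases gives 1 value per library over the same tissues. It is weighted to the loci with the most counts. Of its 1896 counts, 493 were of LOC_Os03g16170 and 455 of LOC_Os01g40094, against 23 of LOC_Os05g49730. The sums averaged 514 ± 160 CPM in AM1, then 412 ± 113 in AM2 and 465 ± 119 in AM3, and 394 ± 58.5 in AM4 and 389 ± 78.3 CPM in AM5 (SD, n = 6 each), and 476 ± 141 CPM in SAM (SD, n = 5). The AM5 sums, 314 to 538 CPM, overlapped the AM1 sums, 369 to 807 CPM. The highest library was Takanari AM1 number 17 and the lowest was Takanari AM2 number 4, at 305 CPM. Every sum rested on 20 to 107 molecules.

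**Figure D3:**
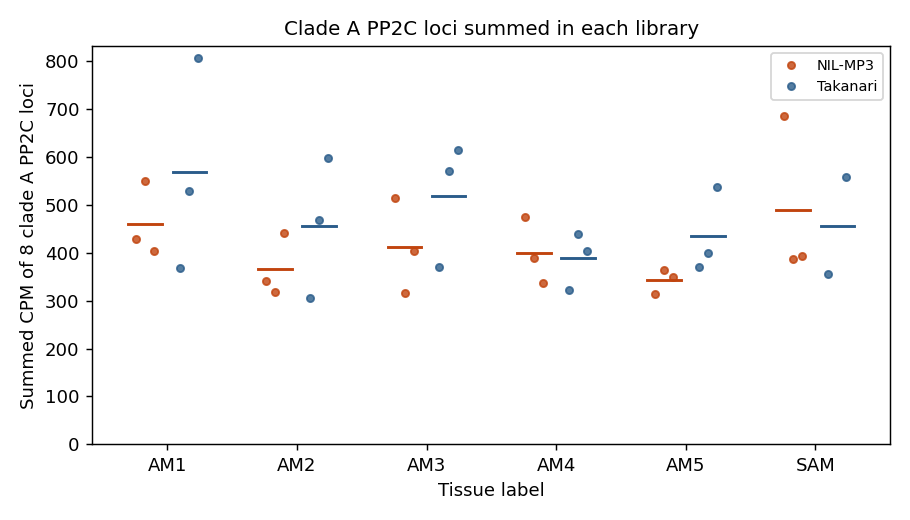
Summed level of the 8 clade A PP2C loci in CPM (vertical axis, from 0) in each library, by tissue label (horizontal axis). Points are libraries, red for NIL-MP3 and blue for Takanari, and bars are group means; the AM5 libraries at 314 to 538 CPM lie within the spread of the other tissues.

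Slopes were also fitted within each cultivar, with 0 of 9 loci past the threshold in NIL-MP3 (background 5.07%, smallest adjusted p 0.196) and 0 of 9 in Takanari (background 11.4%, smallest adjusted p 0.118). At an unadjusted p under 0.05 there was 1 locus in each cultivar, LOC_Os03g16170 in NIL-MP3 and OsbZIP46 in Takanari, beside 18.2% of all loci in NIL-MP3 and 24.3% in Takanari. OsbZIP46 had slopes of -0.18 ± 0.13 in NIL-MP3 and -0.36 ± 0.15 in Takanari (SE). LOC_Os09g15670 had slopes of -0.32 ± 0.21 in NIL-MP3 and -0.38 ± 0.19 in Takanari (SE). Of the 9 loci, 4 had slopes of opposite sign in the cultivars. LOC_Os05g46040 had -0.31 ± 0.17 in NIL-MP3 and 0.14 ± 0.14 in Takanari, and LOC_Os01g46760 had 0.23 ± 0.22 in NIL-MP3 and -0.42 ± 0.23 in Takanari (SE). OsbZIP23 had -0.25 ± 0.13 in NIL-MP3 and 0.074 ± 0.14 in Takanari, and LOC_Os01g62760 had 0.076 ± 0.15 in NIL-MP3 and -0.080 ± 0.13 in Takanari (SE).

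The difference between the cultivars' slopes was tested directly and passed for 0 of 9 loci in edgeR, as for 0% of all tested loci, with 2 of 9 at an unadjusted p under 0.05, beside 4.26% of all loci. The difference NIL-MP3 minus Takanari was -0.45 ± 0.22 for LOC_Os05g46040 and 0.65 ± 0.32 for LOC_Os01g46760 (SE, edgeR adjusted p = 0.991 for each). DESeq2 and limma voom also called 0 of the loci. LOC_Os01g46760 had 137 counts in all and was at 0 in 6 libraries, 1 of NIL-MP3 and 5 of Takanari.

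**Figure D4:**
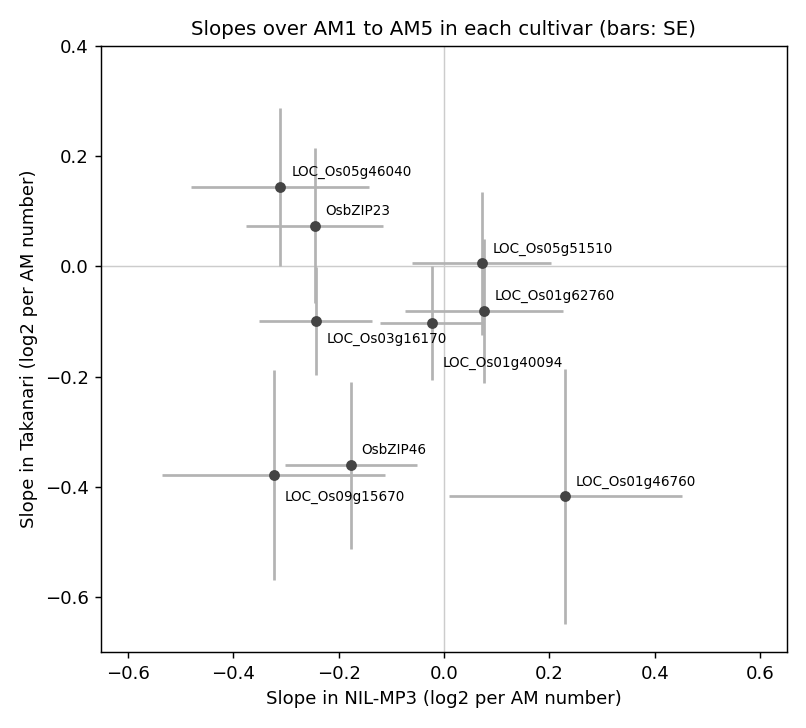
Slope per label number over AM1 to AM5 on the log2 scale in NIL-MP3 (horizontal axis) and in Takanari (vertical axis) for the 9 tested loci; points are estimates and bars are 1 standard error. OsbZIP46 and LOC_Os09g15670 have negative slopes in both cultivars, and LOC_Os01g46760 lies at 0.23 in NIL-MP3 and -0.42 in Takanari.

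The second comparison set the AM groups against SAM. None of the 9 loci passed in edgeR (0 of 9, smallest adjusted p 0.175), where 1.35% of all loci did. DESeq2 and limma voom called 0 as well. At an unadjusted p under 0.05 there was 1 of the 9, LOC_Os05g46040, against 12.3% of all loci. This phosphatase averaged 48.4 ± 22.7 CPM in AM1, then 38.8 ± 12.4 in AM2 and 59.1 ± 20.4 in AM3, and 62.0 ± 33.7 in AM4 and 37.3 ± 30.8 CPM in AM5 (SD, n = 6 each), and its SAM mean was the highest, 79.3 ± 48.6 CPM (SD, n = 5). On the log2 scale its AM minus SAM difference was -0.86 ± 0.31 (SE, edgeR adjusted p = 0.175). Without 1 library it ranged from -1.16 to -0.046, the value closest to 0 being that without Takanari SAM library 12.

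The SAM groups were also set against each end of the series. In AM5, LOC_Os05g46040 was lower than in SAM, and it was the only 1 of 9 loci past the threshold, beside 10.2% of all loci and 4.68% that were lower. Its AM5 libraries stood at 15.7, 21.4 and 7.78 CPM in NIL-MP3 and at 84.3, 66.5 and 28.3 CPM in Takanari, against SAM libraries at 91.3, 42.2 and 75.8 CPM in NIL-MP3 and 32.3 and 155 CPM in Takanari. In NIL-MP3 every AM5 library was below every SAM library, from 1 or 2 molecules each, whereas in Takanari both tissues overlapped. The log2 difference was -1.53 ± 0.48 (SE, edgeR adjusted p = 0.0297), a level 2.88-fold lower in AM5 (95% interval of the ratio 0.177 to 0.677).

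The AM5 call at LOC_Os05g46040 rested on few libraries. It ended without NIL-MP3 AM5 library 13 (log2 difference -1.34, adjusted p = 0.112), Takanari AM5 library 13 (-1.35, adjusted p = 0.0784) or NIL-MP3 SAM library 6 (-1.43, adjusted p = 0.066), all in edgeR. Without Takanari SAM library 12, which leaves 1 Takanari SAM library, the log2 difference was -0.71. That was the smallest in size of any fit without 1 library, and the call is not taken to hold in it. The call also ended with DESeq2 (-1.54, adjusted p = 0.0692), with limma voom (-1.30, adjusted p = 0.104) and in counts thinned to the lowest total (-1.88, edgeR adjusted p = 0.0774).

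In AM1 none of the loci passed against SAM (0 of 9 in edgeR, smallest adjusted p 0.600), beside 0.144% of all loci. LOC_Os09g15670 alone had an unadjusted p under 0.05, beside 6.93% of all loci, with a log2 difference of 1.91 ± 0.79 (SE). Its SAM libraries stood at 91.3, 7.03 and 25.3 CPM in NIL-MP3 and 10.8 and 0 CPM in Takanari, so 2 SAM libraries lay within the AM1 range and 3 lay below it. A test for any difference among the 6 tissues passed for 0 of 9 loci in edgeR, beside 14.8% of all loci, with 2 of 9 at an unadjusted p under 0.05, beside 26.2% of all loci. The smallest adjusted p was 0.0859, for LOC_Os09g15670. The 1 tested locus of the YABBY pair passed this test (edgeR adjusted p = 0.0145), and the summed YABBY level averaged 182 ± 91.5 CPM in AM1 (SD, n = 6) and 352 ± 75.9 CPM in SAM (SD, n = 5), the lowest and highest of the 6 tissue means. Its part in the tissue values of the ABA loci was not tested.

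The third comparison was between NIL-MP3 and Takanari, averaged over the 6 tissues. None of the 9 loci passed (0 of 9 in edgeR, DESeq2 and limma voom, smallest edgeR adjusted p 0.220), where 1.3% of all loci did in edgeR. At an unadjusted p under 0.05 there were 2 of the 9, LOC_Os01g62760 and LOC_Os03g16170, against 13.8% of all loci. The 7 tested phosphatases had a median log2 difference of -0.22, with 5 of 7 estimates below 0, and both bZIP loci had estimates above 0; the median over all loci was 0.0089.

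LOC_Os01g62760 averaged 38.9 ± 20.04 CPM across NIL-MP3 (SD, n = 18; lowest 6.62, median 36.3, highest 78.5) and 59.2 ± 34.0 CPM across Takanari (SD, n = 17; lowest 0, median 56.1, highest 136). The ranges of both cultivars overlapped over most of their length. Its log2 difference was -0.68 ± 0.27 (SE, edgeR adjusted p = 0.220). In the NIL-MP3 AM3 libraries it stood at 17.4, 15.1 and 6.62 CPM, against 42.2, 10.2 and 81.3 CPM in Takanari AM3.

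LOC_Os03g16170 averaged 100.5 ± 33.9 CPM across NIL-MP3 (SD, n = 18; lowest 42.7, median 99.5, highest 178) and 129 ± 52.8 CPM across Takanari (SD, n = 17; lowest 43.1, median 142, highest 216), a log2 difference of -0.37 ± 0.18 (SE, edgeR adjusted p = 0.344). Without 1 library this difference ranged from -0.48 to -0.17, the value closest to 0 being that without Takanari SAM library 12. By its identifier it is the only one of the 10 loci on chromosome 3; the others lie on chromosomes 1 (3 loci), 5 (3 loci), 2, 6 and 9 (1 locus each). OsbZIP23 averaged 72.1 ± 33.6 CPM across NIL-MP3 (SD, n = 18) and 52.1 ± 25.2 CPM across Takanari (SD, n = 17), and its log2 difference was 0.38 ± 0.24 (SE, edgeR adjusted p = 0.502). OsbZIP46 averaged 76.6 ± 35.5 CPM across NIL-MP3 (SD, n = 18) and 66.8 ± 45.4 CPM across Takanari (SD, n = 17), a log2 difference of 0.24 ± 0.24 (SE, edgeR adjusted p = 0.713). Without 1 library it ranged from 0.058, without NIL-MP3 AM5 library 7, to 0.44, without Takanari AM1 library 11. The intervals reached -0.10 to 0.87 for OsbZIP23 and -0.24 to 0.73 for OsbZIP46, so differences within these bounds could not be resolved at this depth. Summed over the 8 phosphatases, NIL-MP3 had 412 ± 95.5 CPM (SD, n = 18) and Takanari 472 ± 132 CPM (SD, n = 17).

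Within single tissues the 9 loci gave 54 differences between the cultivars, of which 0 passed in edgeR (background 0%, smallest adjusted p 0.847). At an unadjusted p under 0.05 there were 5 of the 54, beside 4.54% over all loci. These were LOC_Os05g46040 in AM5, with a log2 difference of -1.92 ± 0.82, LOC_Os01g62760 in AM1 (-1.32 ± 0.60) and AM3 (-1.77 ± 0.78), and LOC_Os09g15670 (2.95 ± 1.35) and LOC_Os01g46760 (2.76 ± 1.18) in SAM (SE). The SAM values rested on few molecules: LOC_Os01g46760 had 106.6, 56.2 and 35.4 CPM in NIL-MP3 SAM against 21.5 and 0 CPM in Takanari SAM.

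Other loci of the ABA pathway were taken from lists drawn from general knowledge of rice locus numbers, since no file used here pairs the identifiers with names. Few of them were deep enough to test: 1 of 11 on the list of PYL/RCAR receptors, 4 of 10 SAPK kinases, 2 of 4 other ABA-related bZIP loci, 4 of 7 dehydrin and LEA loci (proteins that accumulate in ABA-treated tissue), 1 of 5 NCED loci (ABA synthesis) and 1 of 3 ABA 8'-hydroxylase loci (ABA breakdown). A further clade A PP2C locus was not tested. In the slope over AM1 to AM5, 1 of 4 SAPK loci rose, 1 of 4 dehydrin and LEA loci fell, the NCED locus fell and the hydroxylase locus rose, and 0 of 1 receptor and 0 of 2 other bZIP loci passed. That is 4 of 13 tested loci, beside 19.2% of all tested loci in either direction, 9.36% higher and 9.81% lower. The lists were chosen with earlier results of these data known, so this count is a description only. Between the cultivars over all tissues, 0 loci of any of these lists passed, where 1.3% of all loci did. All 4 tested dehydrin and LEA loci had estimates higher in NIL-MP3, with a median log2 difference of 1.23 (smallest edgeR adjusted p 0.0570). Of these, 2 of 4 had an unadjusted p under 0.05, beside 13.8% of all loci. The receptor, other bZIP and hydroxylase lists had 1 such locus each, and the SAPK and NCED lists 0.

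The tested NCED locus, LOC_Os03g44380, averaged 75.8 ± 74.1 CPM in AM1, then 17.8 ± 17.4 in AM2 and 15.8 ± 11.1 in AM3, and 11.8 ± 7.29 in AM4 and 15.5 ± 9.60 CPM in AM5 (SD, n = 6 each), and 80.2 ± 34.3 CPM in SAM (SD, n = 5). Its slope was -0.46 ± 0.15 (SE, edgeR adjusted p = 0.0176), and AM minus SAM gave a log2 difference of -1.91 ± 0.41 (SE, edgeR adjusted p = 0.00635). The slope did not pass without NIL-MP3 AM1 library 11 (adjusted p = 0.0526) or Takanari AM1 library 17 (adjusted p = 0.111). Without Takanari SAM library 12, which leaves 1 Takanari SAM library, the SAM difference was -1.43. That was the smallest in size of any fit without 1 library, and the SAM call is not taken to hold in it. In thinned counts neither passed, with adjusted p of 0.278 for the slope and 0.0584 for the SAM difference (edgeR); the slope did not pass with limma voom either (-0.35, adjusted p = 0.097). The hydroxylase locus, LOC_Os08g36860, averaged 35.7 ± 30.3 CPM in AM1, then 16.5 ± 10.1 in AM2 and 42.3 ± 34.2 in AM3, and 56.8 ± 38.7 in AM4 and 74.4 ± 22.8 CPM in AM5 (SD, n = 6 each), with a slope of 0.41 ± 0.12 (SE, edgeR adjusted p = 0.0119). Its log2 difference was 2.54 for AM minus SAM (edgeR adjusted p = 0.160). For AM5 minus SAM it was 3.44 (edgeR adjusted p = 0.00661), where 10.2% of all loci passed. The value of 3.44 is a mean over both cultivars and was not recomputed under other settings. It depends on SAM levels that lay far apart: within SAM, NIL-MP3 minus Takanari was 5.44 (edgeR adjusted p = 0.990), with 2 Takanari libraries.

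On the dehydrin and LEA list, LOC_Os02g44870 averaged 229 ± 123 CPM in AM1, then 112 ± 59.5 in AM2 and 71.0 ± 30.3 in AM3, and 116 ± 63.8 in AM4 and 52.0 ± 33.5 CPM in AM5 (SD, n = 6 each). Its slope was -0.42 ± 0.088 (SE, edgeR adjusted p = 3.38e-04), and it still passed when any single library was left out. On the SAPK list, LOC_Os03g27280 averaged 17.4 ± 33.2 CPM in AM1, where 4 of 6 libraries were at 0, and 93.3 ± 73.6 CPM in AM5 (SD, n = 6 each), with a slope of 0.69 ± 0.17 (SE, edgeR adjusted p = 0.00288). Without the AM5 libraries the slopes of LOC_Os03g27280 (0.49, adjusted p = 0.247) and LOC_Os08g36860 (0.37, adjusted p = 0.179) did not pass.

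**Figure D5:**
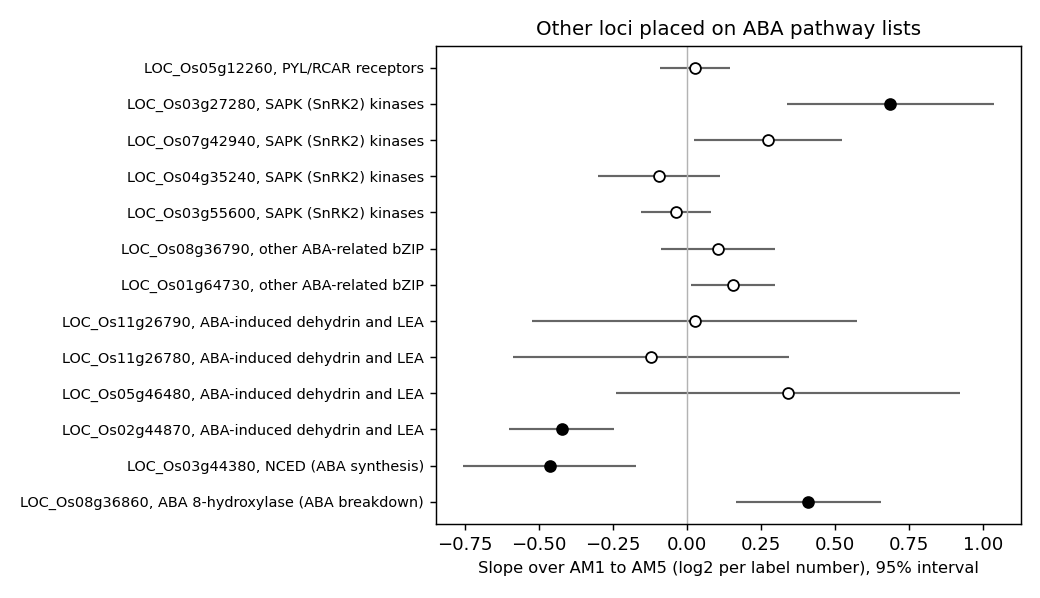
Slope per label number over AM1 to AM5 on the log2 scale (horizontal axis) for the 13 tested loci of the other ABA pathway lists (vertical axis). Circles are estimates, lines are 95% intervals, and filled circles, at 0.69, 0.41, -0.42 and -0.46, are those past an adjusted p of 0.05.

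Likeness of pattern was taken as Pearson's r of log2 CPM over the 12 group means, for the 2 members with the most counts, and is given as a description. The loci most like LOC_Os03g16170 were LOC_Os09g08890 (r = 0.902) and LOC_Os02g08260 (r = 0.859). Those most like LOC_Os01g40094 were LOC_Os01g19410 (r = 0.875) and LOC_Os11g05050 (r = 0.870). These are the highest r among the tested loci outside the members, and the points share libraries and depth.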

How the data were processed

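The authors deposited UMI counts, whole numbers of molecules per locus, for 55801 loci in 35 libraries, not normalized. Libraries followed CEL-Seq2 from 100 pg of RNA with 11 to 15 PCR cycles, per the labels' protocols. Bowtie2 and Subread 2.1 are named without a role, per the submitters' processing notes. For the genome build and annotation, and for how reads of similar, overlapping or antisense loci were counted, details were not given in the sources used here; PP2C loci are a multigene family whose reads could be split. Per the labels, Takanari SAM library 18 is missing since alignment failed.

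Groups came from the labels. Loci passing edgeR's filterByExpr (minimum count 10), 6943 in all, were scaled by TMM and tested with the quasi-likelihood F test of edgeR 4.0.16 (R 4.3.3, robust, 12 group means, no covariate) with Benjamini-Hochberg adjustment over all tested loci at 0.05. CPM used tested loci only. Each standard error is the log2 difference over the root of its F value. The script was tested on simulated data. Alternatives were DESeq2 1.42.0, limma 3.58.1, other scaling, filters, thinning, replicate blocks and leaving out libraries. All 10 members are named; other loci are those on the lists past the threshold in the slope, AM minus SAM or cultivar comparison, and the 2 most alike by r for each of the 2 deepest members. Members and lists were chosen with earlier results of these data known. No file used here pairs the identifiers with names or sequences (0 of 55801 matched the gene table), so PP2C loci keep their identifiers, and chromosomes were read from them.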

Additional observations from a re-analysis of the deposited data

How the results depend on the processing

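Of 1795 values of single loci recomputed under other settings, 1691 kept their direction and their side of the threshold, 33 lost it, 9 gained it and 62 changed sign; every value that changed sign was from a comparison that did not pass. The causes were not tested.

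The slope over AM1 to AM5 called 1 of the 9 loci. It called 0 with DESeq2, with limma voom and quality weights, with a stricter filter on low counts, which left only LOC_Os01g40094 and LOC_Os03g16170 to test, and, in a setting chosen after seeing the data, without both AM5 libraries numbered 1. It called 2 with no filter. Leaving out 1 library at a time gave 0 to 2. AM5 minus SAM also called 1 locus, and it called 0 with DESeq2, limma voom, the stricter filter and thinned counts, and 0 to 1 without 1 library. The slope within Takanari and the test for any difference among tissues called 0, and 0 to 1 without 1 library; the any-tissue test called 1 with no filter. AM minus SAM, the cultivar comparison and the slope difference called 0 of the 9 loci under every setting run.

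Library numbers do not pair the cultivars: deviations of libraries with the same number had a median correlation of 0.0015, and 2 of 17 pairs exceeded 0.1. Within a cultivar, libraries of the same set of 6 consecutive numbers, 1 library per tissue, had a median correlation of 0.144, and 57 of 85 pairs exceeded 0.1. Libraries of other sets of the same cultivar had a median of -0.069, and 0 of 170 pairs exceeded 0.1. Deviations were taken from the group mean and cancel within a group. The lower values between sets thus follow in part from those within sets and are not separate evidence. With a replicate block of 3 levels the OsbZIP46 slope had an adjusted p of 0.0244 in edgeR. With a block of 6 levels, a set in each cultivar, 3 loci passed, OsbZIP46 (adjusted p = 0.0134), LOC_Os03g16170 (0.0416) and LOC_Os09g15670 (0.0461), and the any-tissue test called 1. Over all loci the slope called 1331 in the main fit. It called 824 to 1596 under the settings other than leaving out 1 library, no filter and the block of 6 among them. The share for each of these settings is not given here, so the member counts have no background of their own. With these blocks LOC_Os01g62760 had slopes of 0.00024 (3 levels) and 0.0022 (6 levels), and LOC_Os01g46760 AM minus SAM differences of -0.052 (3 levels) and -0.40 (6 levels).

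Without the AM5 libraries the slopes were -0.068 for LOC_Os05g51510 and 0.17 for LOC_Os05g46040, whose cultivar difference was 0.082. Thinned counts gave 0.18 for LOC_Os05g51510 in AM5 minus SAM, a slope of 0.033 and an AM minus SAM of -0.00067 for LOC_Os01g62760, and an AM minus SAM of -0.0021 and a cultivar difference of -0.093 for OsbZIP46. The slope of LOC_Os01g62760 was 0.0035 with upper quartile scaling, 0.0023 with DESeq2 and 0.011 without both AM5 libraries numbered 1. Limma voom gave a cultivar difference of -0.12 for LOC_Os09g15670, a slope of 0.039 for OsbZIP23 and an AM minus SAM of -0.042 for OsbZIP46.

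Without 1 library, slopes ranged from -0.0180 to 0.116 for LOC_Os05g51510, -0.100 to 0.0672 for LOC_Os01g62760, -0.205 to 0.0637 for LOC_Os01g46760 and -0.136 to 0.0660 for OsbZIP23. AM minus SAM ranged from -0.0688 to 0.873 for LOC_Os03g16170, -0.156 to 0.657 for LOC_Os01g62760, -0.549 to 1.68 for LOC_Os01g46760 and -0.0350 to 0.364 for OsbZIP46. AM5 minus SAM ranged from -0.313 to 0.110 for LOC_Os05g51510, -0.534 to 0.408 for LOC_Os03g16170 and -0.676 to 1.56 for LOC_Os01g46760. The cultivar difference ranged from -0.138 to 0.0711 for LOC_Os01g40094, -0.364 to 0.00801 for LOC_Os05g46040 and -0.0563 to 0.532 for LOC_Os09g15670.

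Over all loci, AM minus SAM called 94 loci, and 150 with limma voom, 155 with no filter, 282 with the block of 6, 47 thinned and 24 without AM5 (8 to 108 without 1 library). The cultivar comparison called 90, and 143 with no filter, 11 with the set as a random effect, 46 thinned and 58 without AM5 (42 to 144 without 1 library). The slope called 1331, and 824 without AM5; within NIL-MP3 it called 352, and 575 with the block of 6 and 217 thinned (181 to 454 without 1 library), and within Takanari 792 (511 to 827). AM5 minus SAM called 709 (395 to 745).

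A library held 24 to 127 molecules of the 10 loci, and SAM rests on 5 libraries. Without Takanari SAM library 12, which leaves 1 Takanari SAM library, the SAM differences of LOC_Os05g46040 and LOC_Os03g44380 were smaller in size.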
